A study of Anser cygnoides with 6 samples.

Results

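The genes described here encode the contractile apparatus of smooth muscle and the cytoskeleton it is anchored to, in the ovary of the goose. They were given as 38 gene symbols: 19 filament genes, 6 regulators of contraction, 10 genes of the junctions where filaments are held, and 3 nuclear genes that act in or with transcription. Of these, 31 were found among the 14696 genes of the deposited table, 21 by the name in the table and 10 by the reference name of their gene identifier. The filament genes MYL6, TPM2, CNN1, TAGLN and DES and the junction genes FLNA and TLN1 were not analysed here, so the smooth muscle markers transgelin, calponin 1 and desmin are missing from what follows.

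The study compared RNA-seq libraries of ovary, as labelled, from 3 broody samples and 3 reproductive samples of Anser cygnoides. Broody geese had been put through forced moulting and short illumination, whereas the reproductive geese are given no such treatment in the labels. Both groups had reached an age of 40 weeks and shared a light-controlled house on 11 h of light and 13 h of dark. The design text speaks of oviduct where the sample labels say ovary, and no label says that the libraries come from separate birds, so p-values measure the spread between these libraries, which may be technical.

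Smooth muscle contracts when calcium and calmodulin activate myosin light chain kinase, which phosphorylates the regulatory light chain so that smooth muscle myosin can pull on actin filaments. Myosin phosphatase reverses this step, and the kinases ROCK1 and ROCK2 hold the phosphatase back, while tropomyosin, caldesmon and calponin lie along the actin filament and modulate the pull. In the bird ovary, smooth muscle lies in the stroma, in the walls of blood vessels and in the theca and stalk of the follicles, and it is known for contracting the follicle's wall and stalk.

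The broody ovaries carried far less of this RNA. Of the 31 genes, 27 were lower in the broody libraries, 1 was higher (LIMA1) and 3 did not pass (CNN3, PDLIM5 and SRF), in limma's test on log2(FPKM + 1) with Benjamini-Hochberg adjustment over all 11377 genes tested. FPKM counts fragments relative to the length of the transcript and to the fragments mapped in the library. Over all tested genes, 12.0% were lower and 29.9% higher in broody ovaries by the same rule, and 41.9% passed in either direction. The median difference, broody minus reproductive, was -1.27 on the log2 scale for the 31 genes and 0.23 for all tested genes. All 31 reached 1 FPKM in every library, so none entered the test through a single group, and the lowest value was 1.27 FPKM (LMOD1).

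The decreases were large as well as frequent. A decrease of at least 2 on the log2 scale was called for 11 of the 31 genes, against 0.633% of all tested genes, and another 11 fell by at least 1 but under 2, where 5.05% of tested genes fell by at least 1. The 3 libraries of each group did not overlap for 29 of the 31 genes, against 59.5% of tested genes. All broody libraries were below all reproductive ones for 27 of them, against 18.2% of tested genes, and above for the other two, against 41.3%. Fewer smooth muscle cells and less RNA per cell cannot be told apart in bulk tissue. With broody 1 or broody 2 left out, no member passed the adjusted threshold, and the smallest adjusted p among the members was 0.0508 without broody 1 and 0.0593 without broody 2 (limma). At an unadjusted p under 0.05, 26 members were still lower in each of those fits, as were 11.6% and 11.3% of all tested genes.

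**Figure D1:**
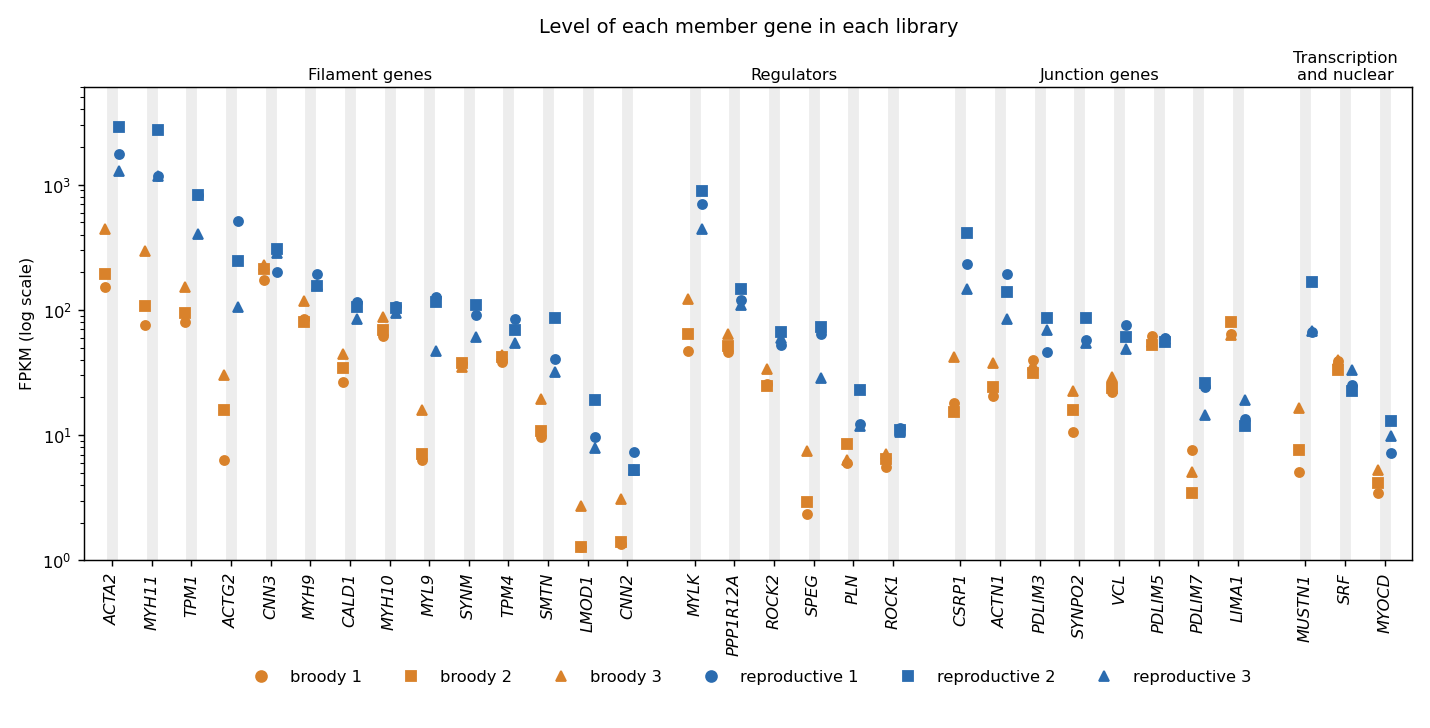
FPKM (log scale) of the 31 genes in each of the 6 libraries, by class, with broody libraries in orange to the left of reproductive libraries in blue; each point is 1 library and its shape gives the replicate number. The broody points lie below the reproductive points for most genes, LIMA1 and SRF lie the other way round, and broody 3 (triangle) is often the highest of its group.

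Summed over the 31 genes, the broody libraries held 1182, 1358 and 2117 FPKM, which is 0.344%, 0.399% and 0.630% of all FPKM in the library. The reproductive libraries held 7008, 10052 and 5083 FPKM, or 2.19%, 2.90% and 1.47% of the library. Broody 3 was thus nearest to the reproductive group and reproductive 3 nearest to the broody group. Broody 3 was the highest of its group for 25 of the 31 genes (80.6%), against 36.9% of all tested genes, and reproductive 3 was the lowest of its group for 20 of them (64.5%), against 14.7%. Reproductive 2 was the highest of its group for 17 (54.8%), although it was the lowest for 52.0% of all tested genes.

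Of the 14 filament genes tested, 13 were lower in broody ovaries and none was higher, with a median difference of -1.70 on the log2 scale. ACTG2 and MYH11 had the most negative differences. ACTG2, smooth muscle gamma actin, stood at 6.36, 16.0 and 30.4 FPKM in broody libraries 1, 2 and 3 and at 513, 244 and 106 FPKM in reproductive libraries 1, 2 and 3, a difference of -3.91 ± 0.66 (SE; adjusted p = 0.0149, limma). The libraries of the groups did not overlap, but both groups spread widely. ACTG2 held the second most negative difference of all 11377 tested genes.

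MYH11, the heavy chain of smooth muscle myosin, had 76.3, 108 and 296 FPKM in the broody libraries and 1166, 2733 and 1179 FPKM in the reproductive ones, a difference of -3.52 ± 0.54 (SE; adjusted p = 0.0131, limma). Every broody library was below every reproductive library, and by mean FPKM MYH11 ranked 264 among tested genes in the broody ovaries and 7 in the reproductive ovaries. MYL9, the regulatory light chain whose phosphorylation starts contraction, had 6.28, 7.01 and 15.9 FPKM in broody libraries against 126, 117 and 47.0 FPKM in reproductive libraries, a difference of -3.17 ± 0.45 (SE; adjusted p = 0.0125, limma). Here reproductive 3 stood well below the other two of its group.

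ACTA2, smooth muscle alpha actin, had 151, 194 and 446 FPKM in the broody libraries and 1752, 2878 and 1295 FPKM in the reproductive ones, a difference of -2.98 ± 0.46 (SE; adjusted p = 0.0129, limma). By mean FPKM it ranked 112 in broody ovaries and 5 in reproductive ovaries, and its groups did not overlap. TPM1, alpha tropomyosin, had 80.8, 93.9 and 153 FPKM in broody libraries and 834, 830.5 and 405 FPKM in reproductive libraries, a difference of -2.63 ± 0.35 (SE; adjusted p = 0.0125, limma). The groups were again separate, with broody 3 highest and reproductive 3 lowest within their groups.

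LMOD1, leiomodin 1, which starts new actin filaments in smooth muscle, had 1.27, 1.27 and 2.70 FPKM in broody libraries and 9.62, 19.0 and 7.96 FPKM in reproductive libraries (difference -2.21 ± 0.34, SE; adjusted p = 0.0128, limma). Smoothelin (SMTN), a protein of contractile smooth muscle cells, had 9.61, 10.7 and 19.3 FPKM in broody libraries and 40.6, 86.9 and 32.0 FPKM in reproductive libraries (difference -1.86 ± 0.39, SE; adjusted p = 0.0178, limma). Caldesmon (CALD1), which restrains actomyosin, had 26.6, 34.4 and 44.4 FPKM in broody libraries and 117, 106 and 85.1 FPKM in reproductive libraries (difference -1.54 ± 0.21, SE; adjusted p = 0.0125, limma). None of these 3 genes had a broody library as high as its lowest reproductive one.

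The other filament genes that passed had differences between -1.27 and -0.49. The non-muscle myosin heavy chain MYH9 averaged 93.9 ± 20.3 FPKM in broody and 168 ± 20.8 FPKM in reproductive ovaries (SD, n = 3 each), a difference of -0.85 ± 0.19 (SE). Its paralog MYH10 averaged 73.3 ± 13.5 FPKM in broody and 102 ± 6.89 FPKM in reproductive ovaries, and at -0.49 ± 0.16 (SE; adjusted p = 0.0475, limma) it was the call nearest the threshold. That call was lost without reproductive 1, 2 or 3 (adjusted p = 0.107, 0.0767 and 0.0525, limma). TPM4, a tropomyosin of non-muscle cells, averaged 41.5 ± 2.86 FPKM in broody and 69.3 ± 15.3 FPKM in reproductive ovaries (difference -0.71 ± 0.18, SE). CNN2, a calponin found in many cell types, averaged 1.95 FPKM in broody and 5.94 FPKM in reproductive ovaries (difference -1.27 ± 0.25, SE). SYNM, the intermediate filament protein synemin, averaged 36.7 ± 1.78 FPKM in broody and 86.6 ± 24.0 FPKM in reproductive ovaries (difference -1.18 ± 0.21, SE).

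CNN3, the calponin of non-muscle cells, was the filament gene that did not pass. It had 174, 213 and 227 FPKM in broody libraries and 201, 308 and 286 FPKM in reproductive libraries, and the groups overlapped. The difference was -0.36 with a 95% interval from -0.85 to 0.14 (adjusted p = 0.199, limma). CNN3 made up 98.7% to 99.3% of the CNN2 and CNN3 sum in broody libraries and 96.5% to 98.3% in reproductive libraries. CNN1 was not analysed, so the share of CNN3 in all calponin RNA is unknown. The cytoplasmic beta actin ACTB, which every cell uses, also did not pass (difference -0.21, 95% interval -0.67 to 0.25, adjusted p = 0.408, limma), at 852, 771 and 773 FPKM in broody and 845, 979.8 and 947 FPKM in reproductive libraries.

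**Figure D2:**
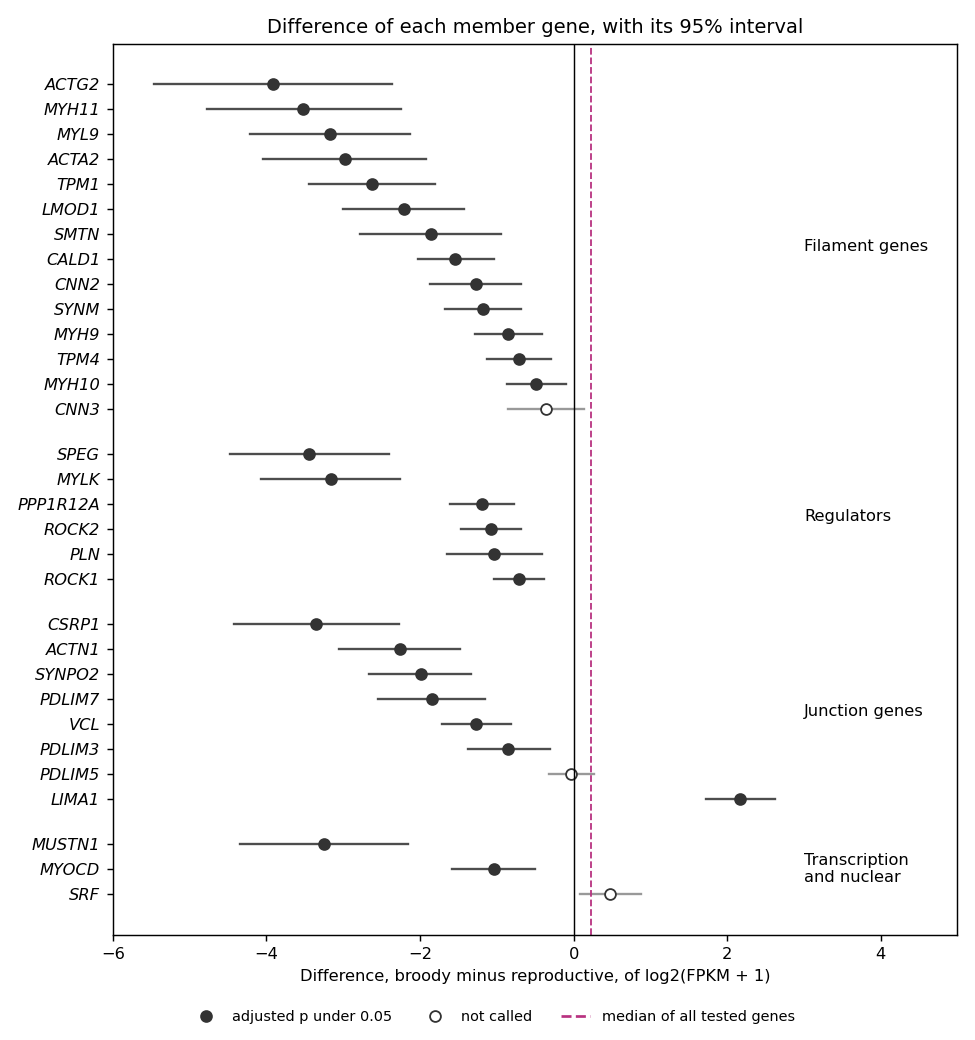
Difference in log2(FPKM + 1), broody minus reproductive, of each gene with its 95% interval, by class; filled circles passed an adjusted p of 0.05 and open circles did not. The dashed line is the median of all tested genes (0.23), and LIMA1 at 2.17 stands alone among the filled circles on the right.

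The make-up of the filament families also differed between the groups. MYH11 made up 34.2%, 42.0% and 59.0% of the summed FPKM of MYH11, MYH10 and MYH9 in the broody libraries and 79.5%, 91.4% and 82.4% in the reproductive ones (means 45.1% and 84.4%). ACTA2 and ACTG2 together made up 13.5%, 18.7% and 34.0% of the summed FPKM of 6 actin genes in broody libraries and 66.4%, 71.9% and 54.8% in reproductive libraries (means 22.1% and 64.3%). ACTB was the largest actin in every broody library, at 55.2% to 72.9%, and ACTA2 was the largest in every reproductive library, at 50.6% to 66.3%. TPM1 made up 34.4%, 37.1% and 45.2% of TPM1, TPM3 and TPM4 in broody libraries and 72.4%, 70.2% and 61.8% in reproductive libraries, with TPM3 taking most of the remainder.

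In each of these families the broody and reproductive libraries did not overlap. An exact two-sided permutation test gave p = 0.1 for each, which is the smallest value that 3 against 3 libraries can give. The value adjusted over 4 such comparisons was also 0.1, and the shares were compared after the data had been seen. Actin genes are close copies of one another, so reads of ACTA2, ACTG2 and the skeletal gene ACTA1 may have been shared among them, and their separate levels are uncertain.

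**Figure D3:**
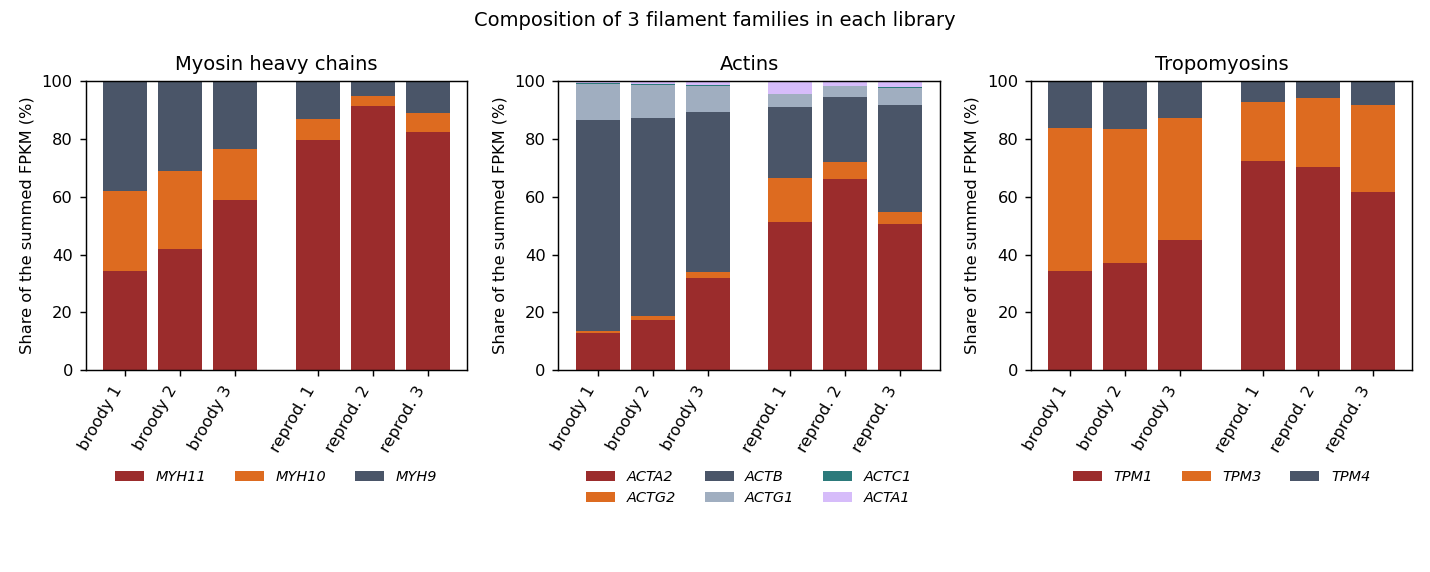
Share (%) of each gene in the summed FPKM of its family, for myosin heavy chains, actins and tropomyosins, in each library (broody left, reproductive right). MYH11, ACTA2 and TPM1 (dark red) take a smaller share in every broody library than in any reproductive library.

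By summed transcripts all 6 regulators were lower in broody ovaries, with a median difference of -1.14 on the log2 scale. MYLK, myosin light chain kinase, had 46.7, 64.5 and 122 FPKM in broody libraries and 705, 889.8 and 439 FPKM in reproductive libraries, a difference of -3.16 ± 0.39 (SE; adjusted p = 0.0112, limma). The groups were far apart, and MYLK had the eleventh most negative difference of all tested genes. SPEG, a muscle protein kinase of the same kinase family as MYLK, had 2.35, 2.95 and 7.42 FPKM in broody libraries and 64.3, 73.1 and 28.4 FPKM in reproductive libraries, a difference of -3.44 ± 0.44 (SE; adjusted p = 0.0118, limma).

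On the phosphatase side the differences were smaller. PPP1R12A, the subunit that brings myosin phosphatase to myosin, had 46.5, 51.9 and 64.5 FPKM in broody libraries and 119, 147 and 109.7 FPKM in reproductive libraries, a difference of -1.19 ± 0.18 (SE; adjusted p = 0.0126, limma). No test of the difference between MYLK and PPP1R12A was made, and their 95% intervals ran from -4.07 to -2.26 for MYLK and from -1.61 to -0.78 for PPP1R12A. The kinases that phosphorylate that subunit averaged 6.36 ± 0.757 FPKM (ROCK1) and 27.9 ± 5.01 FPKM (ROCK2) in broody ovaries, against 11.0 ± 0.358 and 59.6 ± 6.68 FPKM in reproductive ovaries (SD, n = 3 each). Their differences were -0.71 ± 0.14 and -1.08 ± 0.17 (SE), and ROCK2 made up 79.1% to 82.6% of the pair in broody and 82.3% to 85.8% in reproductive libraries. PLN, phospholamban, which restrains the calcium pump of the sarcoplasmic reticulum, averaged 6.92 ± 1.36 FPKM in broody and 15.7 ± 6.25 FPKM in reproductive ovaries (difference -1.03 ± 0.27, SE; adjusted p = 0.0233, limma). The PLN call did not pass without broody 3 (adjusted p = 0.0612). In the fit on single transcripts described below, the PLN decrease lay in the most abundant transcript, whose identifier marks non-coding RNA (difference -1.46). The PLN transcript marked as mRNA had 2.45, 2.80 and 1.43 FPKM in broody libraries. Reproductive libraries had 1.48, 0.449 and 1.41 FPKM of it (difference 0.63, adjusted p = 0.189, limma). A decrease of phospholamban mRNA is therefore not shown.

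Of the 8 junction genes tested, 6 were lower, 1 was higher and 1 did not pass, with a median difference of -1.56. CSRP1, a LIM protein of smooth muscle that binds alpha-actinin, had 18.0, 15.3 and 42.3 FPKM in broody libraries and 232, 410.5 and 147 FPKM in reproductive libraries, a difference of -3.35 ± 0.46 (SE; adjusted p = 0.0125, limma). ACTN1, the alpha-actinin that cross-links actin at dense bodies and adhesions, had 20.4, 24.2 and 37.9 FPKM in broody libraries and 194, 139 and 83.9 FPKM in reproductive libraries (difference -2.26 ± 0.34, SE; adjusted p = 0.0126, limma). For both genes broody 3 was highest and reproductive 3 lowest in its group, as for ACTA2 and TPM1 but not for every filament gene.

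SYNPO2, an actin-bundling partner of alpha-actinin, had 10.5, 15.8 and 22.3 FPKM in broody libraries and 57.4, 86.5 and 54.8 FPKM in reproductive libraries (difference -1.99 ± 0.28, SE; adjusted p = 0.0126, limma). PDLIM7, which carries a PDZ and several LIM domains, had 7.57, 3.42 and 5.10 FPKM in broody libraries and 24.4, 26.2 and 14.6 FPKM in reproductive libraries (difference -1.85 ± 0.30, SE; adjusted p = 0.0138, limma). Vinculin (VCL), which ties actin to adhesions, had 22.2, 23.7 and 29.1 FPKM in broody libraries and 76.4, 61.3 and 48.7 FPKM in reproductive libraries (difference -1.27 ± 0.19, SE; adjusted p = 0.0129, limma). In none of the 3 did the groups overlap.

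The other PDLIM genes had smaller differences. PDLIM3, an alpha-actinin partner in muscle, averaged 35.8 ± 4.10 FPKM in broody and 67.0 ± 20.0 FPKM in reproductive ovaries (SD, n = 3 each), a difference of -0.85 ± 0.23 (SE; adjusted p = 0.0259, limma). Its call did not pass without broody 3 (adjusted p = 0.0615) or without reproductive 3 (adjusted p = 0.0514). PDLIM5, a family member that binds protein kinase C through its LIM domains in mammals, had 62.4, 52.4 and 55.7 FPKM in broody libraries and 59.6, 55.5 and 58.4 FPKM in reproductive libraries. The PDLIM5 groups overlapped, and its difference of -0.03 had a 95% interval from -0.32 to 0.27 (adjusted p = 0.870, limma).

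LIMA1, also called EPLIN, which bundles actin filaments and links them to cell-cell junctions in epithelia, was the gene that rose. It had 64.8, 79.9 and 63.4 FPKM in broody libraries and 13.5, 11.9 and 19.0 FPKM in reproductive libraries, a difference of 2.17 ± 0.19 (SE; adjusted p = 0.00786, limma) with a 95% interval from 1.72 to 2.62. Each broody library was above all reproductive libraries, and the spread within each group was small beside the gap. Counted from the most negative, its difference ranked 11373 of 11377. By mean FPKM, LIMA1 ranked 955 in the broody ovaries and 4943 in the reproductive ovaries.

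Among the nuclear genes, 2 of 3 were lower and none was called higher. MUSTN1, which encodes a small protein found in the nucleus of musculoskeletal cells, had 5.08, 7.59 and 16.5 FPKM in broody libraries and 66.2, 166 and 68.5 FPKM in reproductive libraries, a difference of -3.25 ± 0.47 (SE; adjusted p = 0.0126, limma). MYOCD, myocardin, the coactivator that drives smooth muscle genes together with SRF, had 3.44, 4.11 and 5.29 FPKM in broody libraries and 7.20, 12.9 and 9.86 FPKM in reproductive libraries, a difference of -1.04 ± 0.23 (SE; adjusted p = 0.0185, limma). The groups did not overlap for either gene.

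SRF, serum response factor, which binds CArG boxes in the promoters of contractile genes, did not follow its coactivator. It had 39.2, 33.4 and 39.9 FPKM in broody libraries and 25.3, 22.3 and 33.0 FPKM in reproductive libraries, with broody libraries above reproductive ones by a narrow margin. Its difference of 0.48 had a 95% interval from 0.08 to 0.88 and just missed the threshold (adjusted p = 0.0561, limma). Without reproductive 3 it passed at 0.63 (adjusted p = 0.0185), and with libraries scaled by median-ratio factors it was 0.25 (adjusted p = 0.165).

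The size of these differences depended on how libraries were scaled. With median-ratio factors the median of all genes moved from 0.23 to 0.02, and 18.4% of tested genes were then lower and 17.5% higher. Under that scaling 27 members were again called lower and LIMA1 was still higher, and the members' median difference was -1.50. Relative to the median of all genes, LIMA1 thus stood at 1.94 and PDLIM5 at -0.26 (adjusted p = 0.120, limma).

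Several of these genes are listed with more than 1 transcript, and the transcripts did not all move with the gene. In a fit on single transcripts, added after the data had been seen, 33 of 70 member transcripts were lower and 1 was higher in broody ovaries, against 4.29% lower and 7.09% higher of all 15191 tested transcripts. Unlike the gene sums, some of the 33 reached 1 FPKM in reproductive libraries alone and entered the test through that group. These were the TPM1 transcript ranked 7 (0.886, 0 and 0 FPKM in broody libraries) and the PDLIM7 transcript ranked 4 (0.680, 0 and 0.115 FPKM). The TPM1 transcript ranked 5 barely reached it in broody 1 (1.01, 0 and 0 FPKM in broody libraries). It too met the filter through the reproductive group. The calls of all these transcripts as lower are no evidence. Levels of transcripts that share exons are the authors' allocation of shared reads. This limits all of the following values and those of the PLN transcripts above.

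Most of the TPM1 decrease lay in its most abundant transcript. This transcript had 10.8, 22.1 and 49.1 FPKM in broody libraries and 646, 690.1 and 289.8 FPKM in reproductive libraries, a difference of -4.41 ± 0.59 (SE; adjusted p = 0.0304, limma). The next most abundant had 31.9, 34.2 and 57.7 FPKM in broody libraries and 50.5, 23.9 and 29.8 FPKM in reproductive libraries, and its groups overlapped (difference 0.26 ± 0.34, SE; adjusted p = 0.604, limma). As a share of all TPM1, the most abundant transcript made up 13.4%, 23.5% and 32.0% in broody and 77.4%, 83.1% and 71.6% in reproductive libraries (exact two-sided permutation p = 0.1, the smallest possible). Tropomyosin genes are known to make muscle and non-muscle forms by alternative splicing, but the table does not say which form each transcript encodes.

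For PPP1R12A the most abundant transcript was the one that held its level best, at 36.3, 38.7 and 44.4 FPKM in broody libraries against 63.3, 48.8 and 48.5 FPKM in reproductive libraries (difference -0.41 ± 0.15, SE; adjusted p = 0.0983, limma). Its share of the gene ran between 68.9% and 78.1% in the broody group and between 33.2% and 53.2% in the reproductive group. The next most abundant transcripts differed by -2.23, -2.16 and -2.01 on the log2 scale and passed the test. The gene's decrease lay mainly in these less abundant transcripts.

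MYLK transcripts spread more between libraries than the gene did. Its second transcript had 1.24, 7.12 and 10.1 FPKM in broody libraries and 329.7, 249.8 and 104 FPKM in reproductive libraries (difference -5.13 ± 0.71, SE; adjusted p = 0.0305, limma). Another MYLK transcript, ranked 3 by mean FPKM, had 22.3, 12.8 and 0.00799 FPKM in broody libraries and 2.39, 19.5 and 3.73 FPKM in reproductive libraries, with no ordering of the groups. ACTN1 shows how unstable such splits can be, since the transcript ranked 4 took 51.8% of the gene in broody 1 and at most 0.314% in any other library.

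Of the 3 LIMA1 transcripts, the most abundant was called higher, with 52.5, 62.9 and 55.7 FPKM in broody libraries and 8.59, 8.45 and 10.3 FPKM in reproductive libraries (difference 2.52 ± 0.13, SE; adjusted p = 0.00211, limma). The next had 12.3, 9.08 and 3.77 FPKM in broody libraries and 2.02, 1.80 and 3.20 FPKM in reproductive libraries, without overlap, but did not pass (difference 1.39 ± 0.42, SE; adjusted p = 0.0679, limma). The LIMA1 transcript ranked 3 had 0.0313, 7.91 and 3.96 FPKM in broody libraries and 2.92, 1.66 and 5.47 FPKM in reproductive libraries, and those groups overlapped. The most abundant LIMA1 transcript was the only one of the 70 tested member transcripts called higher.

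**Figure D4:**
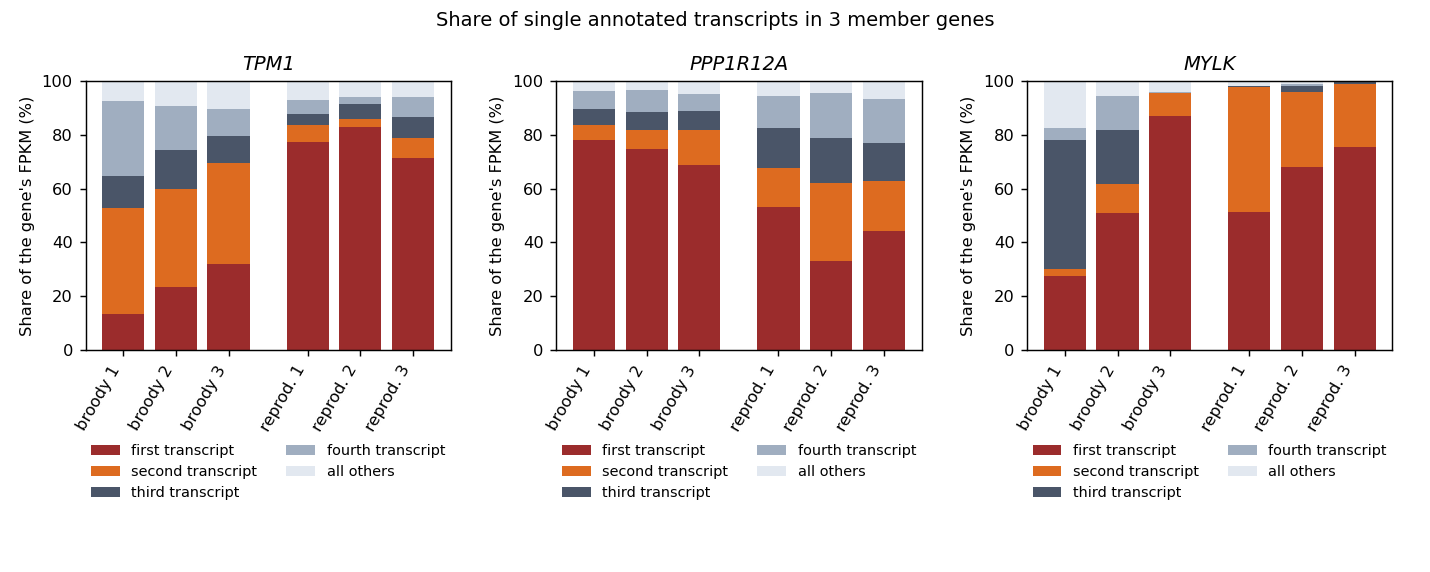
Share (%) of single transcripts, ordered by mean FPKM, in the FPKM of TPM1, PPP1R12A and MYLK, in each library (broody left, reproductive right). The first TPM1 transcript (dark red) makes up at most 32.0% in broody libraries and at least 71.6% in reproductive libraries, and the first PPP1R12A transcript shows the opposite order.

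Other genes of the same machinery were looked at beside the members. Both sets were chosen with earlier results of these data known, so their shares are a description and cannot show how far the decrease reached. Of 111 such genes listed by function, 77 were tested. In broody ovaries 31 were lower and 6 were higher, with a median difference of -0.35. The share lower was 40.3%, against 87.1% of the members and 12.0% of all tested genes, of which 29.9% were higher. Among 14 other actin, myosin, tropomyosin and actin-turnover genes, 4 were lower and 1 was higher. TPM3, a tropomyosin made in most cells, averaged 125 ± 15.1 FPKM in broody and 237 ± 43.6 FPKM in reproductive ovaries, and MYL12B, a non-muscle regulatory light chain, averaged 191 ± 7.23 FPKM in broody and 304 ± 50.9 FPKM in reproductive ovaries (SD, n = 3 each; differences -0.91 and -0.65).

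The single higher gene in that group was TMOD1, tropomodulin, which caps the slow-growing ends of actin filaments. It had 678, 654 and 537 FPKM in broody libraries and 228, 129.7 and 346 FPKM in reproductive libraries, a difference of 1.51 ± 0.34 (SE; adjusted p = 0.0186, limma), and no library overlapped. TMOD1 was still called with median-ratio scaling, at 1.27. VIM, the intermediate filament vimentin, did not pass, at 637, 622 and 593 FPKM in broody and 565, 402 and 523 FPKM in reproductive libraries (adjusted p = 0.209, limma).

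Among 21 other regulators, 7 were lower and 3 higher. CAVIN1, which shapes caveolae, and EDNRA, the endothelin receptor of vascular smooth muscle, averaged 49.7 ± 13.7 and 20.3 ± 6.76 FPKM in broody and 113 ± 14.2 and 53.4 ± 18.9 FPKM in reproductive ovaries (differences -1.20 and -1.35). PPP1CB, the catalytic subunit of myosin phosphatase, averaged 101 ± 2.21 FPKM in broody and 157 ± 11.5 FPKM in reproductive ovaries (difference -0.63). PPP1R12B, a paralog of the phosphatase subunit PPP1R12A, was higher instead, with 7.73, 7.72 and 7.69 FPKM in broody libraries and 4.62, 3.78 and 5.44 FPKM in reproductive libraries (difference 0.64 ± 0.16, SE; adjusted p = 0.0214, limma). LIMK1, a kinase that phosphorylates cofilin, was called higher at 0.63 but not with median-ratio scaling (0.47, adjusted p = 0.0514, limma).

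Of 27 other junction genes, 13 were lower and 2 higher. PDLIM1, a PDZ and LIM protein of stress fibres, had 5.52, 4.33 and 8.57 FPKM in broody libraries and 31.9, 29.5 and 24.1 FPKM in reproductive libraries (difference -2.08 ± 0.23, SE; adjusted p = 0.0112, limma). PARVA and LIMS2, partners of integrin-linked kinase at adhesions, averaged 32.1 ± 4.68 and 52.6 ± 13.4 FPKM in broody ovaries and 112 ± 30.9 and 221 ± 60.4 FPKM in reproductive ovaries (differences -1.74 and -2.04). SYNPO, synaptopodin, a paralog of SYNPO2, was higher, with 6.75, 8.32 and 5.40 FPKM in broody libraries and 3.35, 3.59 and 3.05 FPKM in reproductive libraries (difference 0.84 ± 0.18, SE). LDB3, a PDZ and LIM protein, was called higher at 0.90 but not with median-ratio scaling (0.71, adjusted p = 0.0764, limma). The 15 other transcription genes had 7 lower and none higher, led by the LIM cofactors FHL2 and FHL1, which averaged 24.4 ± 18.1 and 31.0 ± 10.7 FPKM in broody and 185 ± 97.1 and 208 ± 117 FPKM in reproductive ovaries (differences -2.97 and -2.62). TBX18, counted among these 7 and among the 31 lower related genes, had 0.817, 0.419 and 0.633 FPKM in broody libraries. It reached 1 FPKM in reproductive libraries alone (1.67, 1.61 and 3.09 FPKM). It thus entered the test through that group, and its call as lower is no evidence.

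The summed RNA of the stromal fibroblast, pericyte and endothelial marker lists was also lower in the broody libraries, while cell numbers were not measured. Of 9 stromal fibroblast markers tested, 6 were lower and none higher, and the broody libraries summed to 324 to 779 FPKM over this list, the reproductive libraries to 1877 to 2641 FPKM. Of 4 pericyte markers tested 3 were lower, and the 5 found summed to 52.8 to 88.2 FPKM in the broody group against 185 to 289.5 FPKM in the reproductive group. Of 9 endothelial markers 7 were lower and 1 higher, with sums of 109 to 132 FPKM in the broody group and 193 to 247 FPKM in the reproductive group. On all 3 lists every broody library summed to less than every reproductive library. By the same test, 12.0% of all tested genes were lower and 29.9% higher.

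The oocyte and granulosa lists summed to more in every broody library, and 29.9% of all tested genes were called higher there. All 6 oocyte markers tested were called higher, with sums of 1175 to 1391 FPKM in the broody group and 131 to 644 FPKM in the reproductive group. Of 6 granulosa markers tested 3 were higher and none lower, while FSHR, CYP19A1 and GATA4 did not pass and overlapped between the groups, and the 7 found summed to 462 to 568 FPKM in the broody group and 159 to 307 FPKM in the reproductive group. Within the reproductive group, reproductive 2 had the highest member sum and the lowest oocyte and granulosa sums. The broody group did not show this order: broody 3 had the highest member sum and also the highest oocyte sum (1391 FPKM). Its granulosa sum (498 FPKM) lay between those of broody 1 and broody 2. The part of cell composition in the decrease of the 31 genes was not tested.

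Markers of skeletal and cardiac muscle were listed at low values. Of 17 markers found, 11 stayed under 1 FPKM in all libraries, MYOG was listed at 0 in every library, and without the actin gene ACTA1 the list summed to 4.98 to 5.66 FPKM in the broody group and 2.32 to 5.06 FPKM in the reproductive group. Low values in this table need not mean that a gene is silent, since TMSB4X, an abundant actin-binding protein gene of most cells, is listed at no more than 0.137 FPKM in any library. Of the list, ACTA1 and MYOD1 were tested. MYOD1, a skeletal muscle transcription factor, had 2.02, 1.04 and 1.12 FPKM in broody libraries. Reproductive libraries had 0.421, 0.158 and 0.318 FPKM (difference 0.86 ± 0.20, SE). MYOD1 reached 1 FPKM in broody libraries alone, so it entered the test through that group and its call as higher is no evidence. ACTA1 averaged 12.6 ± 6.07 FPKM in broody and 92.3 ± 49.1 FPKM in reproductive ovaries (SD, n = 3 each; difference -2.74), lower as its smooth muscle paralogs were. Since the design text speaks of oviduct, 13 oviduct genes were looked for and 3 were found. The transferrin gene TF had 71.1 FPKM in reproductive 2 and at most 4.79 FPKM in any other library, and FOXJ1, a gene of ciliated cells, was higher in broody ovaries. Of 6 nerve and glia genes found, UCHL1 was the one tested, and it was higher in broody ovaries (difference 1.08).

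**Figure D5:**
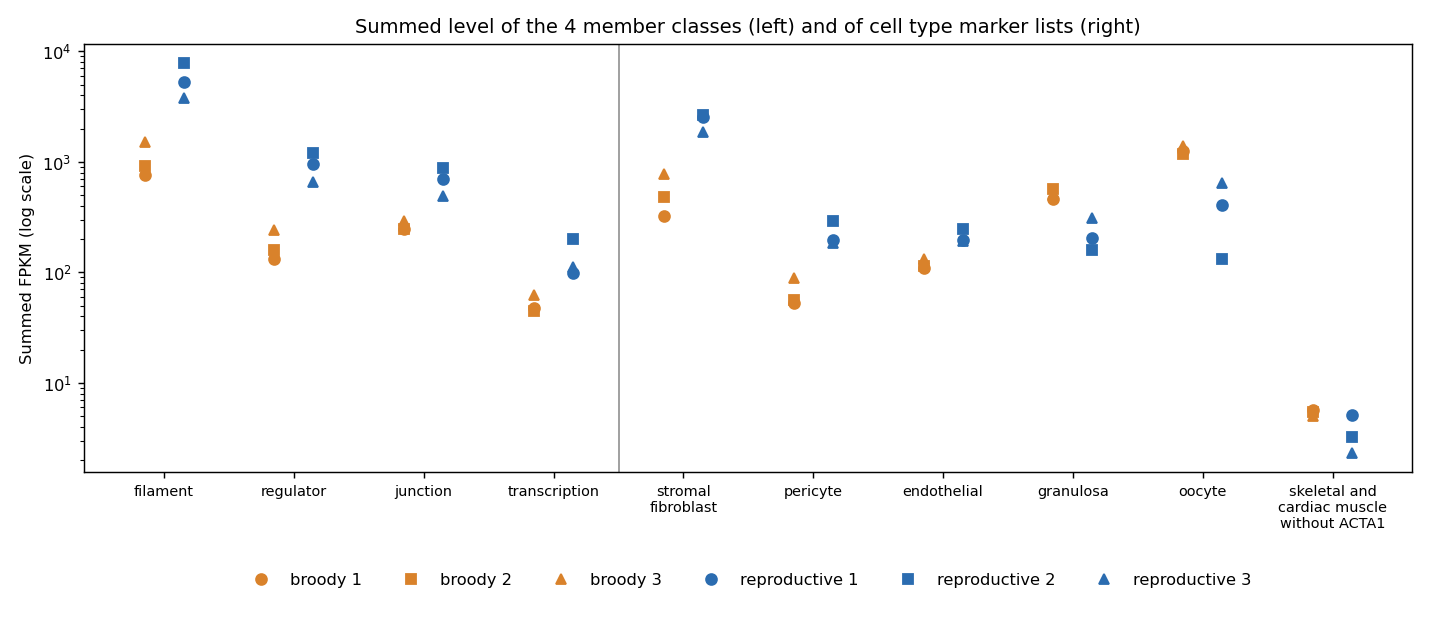
Summed FPKM (log scale) of the 4 classes of the 31 genes (left of the line) and of cell type marker lists (right) in each library, broody in orange left of reproductive in blue. The 4 classes and the stromal, pericyte and endothelial lists are lower in all broody libraries, and the granulosa and oocyte lists are higher in all of them.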

How the data were processed

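Trizol extracts of 6 goose ovary samples, 3 broody and 3 reproductive, went into Illumina TruSeq RNA libraries, per the labels' protocols. The deposited table holds FPKM values made by the authors for 33089 transcripts in each library. HISAT2 and StringTie are named in the submitters' processing notes without versions, while build, annotation and strandedness of counting are not given in the sources used. Depth is unknown: among genes under 0.1 FPKM, 1.64% to 3.56% of ratios between libraries fell in the most frequent 1% bin, so no whole reads could be recovered.

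Transcripts were summed per gene identifier to 14696 genes (319866 to 346625 FPKM per library). Names came from the table for 6611 genes and from NCBI's RefSeq gene table of assembly GCF_040182565.1 for 5742, and 2343 stayed unnamed. No sequences or coordinates were used. The 11377 genes that reached 1 FPKM in at least 3 of 6 libraries entered a test on log2(FPKM + 1) with limma 3.58.1 in R 4.3.3 (eBayes with a mean-variance trend, two-sided, Benjamini-Hochberg over all genes, threshold 0.05). A pseudocount of 1 understates changes of low genes. Tested on simulated data with 11255 genes, it found 44 of 100 genes altered by 1 log2 unit and 91 of 100 altered by 2, with 3.57% false among 140 calls. The altered genes were drawn from those with a mean log2(FPKM + 1) above 3, so recovery of lower genes was not simulated. The simulation altered few genes and drew noise independently for each gene, whereas 41.9% of tested genes passed here. Its rates need not hold for these data. Shares were compared with an exact permutation test in scipy 1.17.1.

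The member genes and the lists of related and marker genes were chosen with earlier results of these data known. Values per library are given for each member that was higher or did not pass and for the largest decreases of each class (up to 8 filament, 3 regulator, 5 junction and 3 nuclear genes). Other genes with values were taken from the 4 of each related list and direction with the smallest p and the 3 of each marker list with the highest mean, and not all of these are described; markers named without a level, MYOG, TMSB4X, ACTB and VIM are outside that choice, and TMSB4X was picked after its values were seen. A regulator result is not reported here. No 2 libraries held identical values. No pairing of the libraries by replicate number was seen. Alternatives covered the pseudocount, filter, scaling, trend, block, transcript choice, naming, threshold and each library in turn (19 in all).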

Additional observations from a re-analysis of the deposited data

How the results depend on the processing

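Of the alternatives, another pseudocount, filter, scaling, trend setting, block or transcript choice left 24 to 27 members lower and 1 higher. With deposited names alone 21 members were tested, and 19 of these were lower. Leaving out 1 library left 0 to 26 members lower, 0 to 2 higher, 0 to 30 related genes lower, 0 to 8 related genes higher, and over all genes 1 to 1225 lower and 0 to 3765 higher. The zeros came without broody 1 or broody 2, where 1 of all tested genes passed in each fit, while 25 members were lower without broody 3. The cause was not tested. At a threshold of 0.01, 0 members were lower, 1 was higher, 0 related genes passed in either direction, and 15 genes were lower and 3 higher over all genes. The members' median moved to -1.56 with a pseudocount of 0.1. With deposited names alone 39 related genes were tested, of which 18 were lower and 3 higher. Over all genes, 2089 were lower and 1986 higher with median-ratio scaling, 2108 and 1965 with upper-quartile scaling, and 2198 were higher with quantile normalization and 2180 with the most abundant transcript per gene, against 1366 lower and 3400 higher as reported.

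With the replicate block 24 members were lower, and 948 genes were lower and 2225 higher over all genes. The numbers do not pair the libraries: same-numbered libraries had deviations correlated at 0.11, -0.158 and -0.203, and not every library correlated best with its own number. Of single calls, the block cost MYH10 (adjusted p = 0.114), PDLIM3 (0.0546) and TPM4 (0.0528, limma), and the most abundant transcript alone cost MYH10, TPM4 and PPP1R12A. No filter, the same sum per library and no trend each cost 1 filament gene its call (adjusted p = 0.0546, 0.0551 and 0.0524, limma). No called member changed direction under these alternatives. Unknown depth and 3 libraries per group limit the precision.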
